A study of Mus musculus with 3 samples.

Results

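Wnt ligands, their receptors and their modulators were followed across the cell types of the postnatal mouse lung by scRNA-Seq. The set held 51 of the 28692 genes listed in the matrices. It was chosen by gene symbol without a cut-off on level, while earlier results of these data were known. It comprised 19 Wnt ligands, 12 receptors and co-receptors (the Frizzleds, *Lrp5* and *Lrp6*), 4 R-spondins and their 3 receptors (*Lgr4*, *Lgr5* and *Lgr6*). It also held 9 secreted inhibitors (the *Sfrp* and *Dkk* genes and *Wif1*), the 2 ubiquitin ligases *Rnf43* and *Znrf3*, and *Axin2* and *Lef1*. The 3 libraries came from the whole lungs of C57BL/6 mice 2, 3 and 4, which had been kept in room air from day of life 1 to 14 and were taken at P14. Each mouse gave 1 library and all 3 belonged to 1 group, with no allele or treatment listed beside room air, so the comparisons run between cell types.

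Wnt ligands are lipid-bearing secreted proteins that act on nearby cells. A ligand that joins a Frizzled to *Lrp5* or *Lrp6* stabilises β-catenin, which works with Tcf/Lef proteins on targets such as *Axin2*, whereas *Wnt5a* and *Wnt11* are best known for signals that do not need β-catenin. *Rnf43* and *Znrf3* take Frizzleds off the cell surface, and R-spondins bound to an Lgr receptor hold those ligases back. Sfrp proteins and *Wif1* bind the ligands themselves, while *Dkk1* and *Dkk2* bind the Lrp co-receptors. In the lung, Wnt signals between stroma and epithelium take part in early lung specification, in branching and in the upkeep of alveolar type 2 (AT2) cells.

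Of 9644 deposited barcodes, 7642 passed the filters on genes and mitochondrial UMIs, 2386 to 2655 per mouse, with 20804836 to 23442355 UMIs per mouse and a median of 6033.5 UMIs per cell. Cells were named from marker genes as 955 ECs, 1256 epithelial, 1394 stromal and 2956 immune cells, and 1004 cells stayed unnamed. The unnamed cells included a cluster of 457 with a median of 844 UMIs, whose leading genes included *Sox7*, *Epas1* and *Sox18*. They also included 126 cells with a median of 9762 UMIs, with *Notch3*, *Heyl* and *Rgs5* among the leading genes. Unnamed cells took no part in the tests. Immune cells were 28.3%, 54.2% and 32.7% of the cells of mice 2, 3 and 4. Types within these classes carry the ending "-like", since the names were rebuilt from markers. Levels are counts per 1000000 UMIs summed over a class or type in a mouse (CPM), and errors are SDs over mice. The libraries shared 12 cell barcodes between them. The gene set had 61797 UMIs in the cells kept. At least 100 UMIs were found for 35 genes, 15 had between 1 and 93, and *Wnt8a* had 0. A count of 0 does not show absence, and a floor of 3 UMIs is used below where stated.

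The stroma carried the broadest set of Wnt genes. Against the mean log level of the other 3 classes, 28 of the 37 testable genes were called higher and 2 lower in stromal cells. The test was an edgeR quasi-likelihood fit, with p adjusted by Benjamini-Hochberg over all genes. Of all 14095 genes, 66.7% were called in either direction, 35.8% higher and 30.9% lower. The median log2 fold change was 2.41 over these genes and -0.01 over all genes. Each contrast of a class or type is taken from the mean log level of the others. A gene can thus be called higher in a class that is not its highest, or that lies below the mean CPM of the others. Stromal *Fzd4*, for example, was called higher at 32.8 CPM, where the mean CPM of the other 3 classes was 119.8. Stromal cells had the highest mean level of 19 of the 28. Among the 28, *Lgr6*, *Rspo2*, *Rspo4*, *Sfrp2*, *Sfrp4*, *Wnt2* and *Wnt5b* passed the filter on low counts only through stromal sums, so the filter set their direction.

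Immune cells stood at the other end. There, 27 genes were lower and 5 higher, with 76.6% of all genes called (37.9% higher, 38.7% lower). Immune cells had the lowest mean level of 26 of the 27, but some of these ranks cannot be told from ties. *Sfrp2* had 1 UMI in immune and 2 in epithelial cells, and *Wnt3a* had 0 in immune cells and 1 in ECs. *Wnt7b* had 1 in immune cells and 2 each in ECs and stromal cells. The median was -3.37 against -0.05 over all genes. The higher genes were *Lef1*, *Lgr5*, *Rnf43*, *Wnt6* and *Wnt10a*, and immune cells had the highest mean of *Lef1* and *Wnt10a*. The call on *Lgr5* was lost without mouse 2. B cell-like cells made up 1784 of the 2956 immune cells and 7740227 of the 13474447 immune UMIs, so the class levels are largely theirs. *Axin2*, lower in the class, averaged 43.0 CPM in T cell-like and 0.669 in B cell-like cells, against 30.6 in ECs.

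In ECs 12 genes were higher and 11 lower (59.8% of all genes called, 30% higher and 29.8% lower), and in epithelial cells 18 were higher and 10 lower (71.4%, 34.8% higher and 36.5% lower). ECs had the highest mean of 8 of their 12: the receptors *Fzd4* and *Fzd6*, the co-receptors *Lrp5* and *Lrp6*, *Rspo3*, and the inhibitors *Dkk2*, *Sfrp1* and *Wif1*. Epithelial cells had the highest mean of 8 of their 18: the ligands *Wnt3a*, *Wnt7a* and *Wnt7b*, the receptors *Fzd5*, *Fzd7* and *Fzd8*, and both ligases. *Dkk2* passed the filter on low counts only through EC sums, and *Wnt3a*, *Wnt7a* and *Wnt7b* only through epithelial sums. The filter thus set the direction of these calls. The medians were -0.43 in ECs (-0.06 over all genes) and 0.42 in epithelial cells (-0.09 over all genes).

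Scaling moved these last 2 classes. Without TMM scaling the median of all genes went to 0.22 in ECs, -0.45 in epithelial cells and 0.12 in stromal cells, and the share of all called genes that were higher went from 50.2% to 69.5% in ECs and from 48.8% to 31.6% in epithelial cells. The gene set then had 15 higher and 9 lower in ECs and 16 higher and 11 lower in epithelial cells, while stromal cells kept 28 and 2 and immune cells 5 and 27. For 16 of the 37 genes a class held under 3 UMIs. With those levels raised to 3 UMIs, on CPM without TMM scaling, the median of the set was 2.58 in stromal cells (0.11 over all genes), -2.80 in immune cells (-0.11), -0.35 in ECs (0.21) and -0.42 in epithelial cells (-0.47). The epithelial median thus had the other sign, and since the floor and the scaling changed together their parts cannot be told apart. No fold change is given below where a compared class or type held 3 UMIs or fewer, other than fitted values marked as such.

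**Figure D1:**
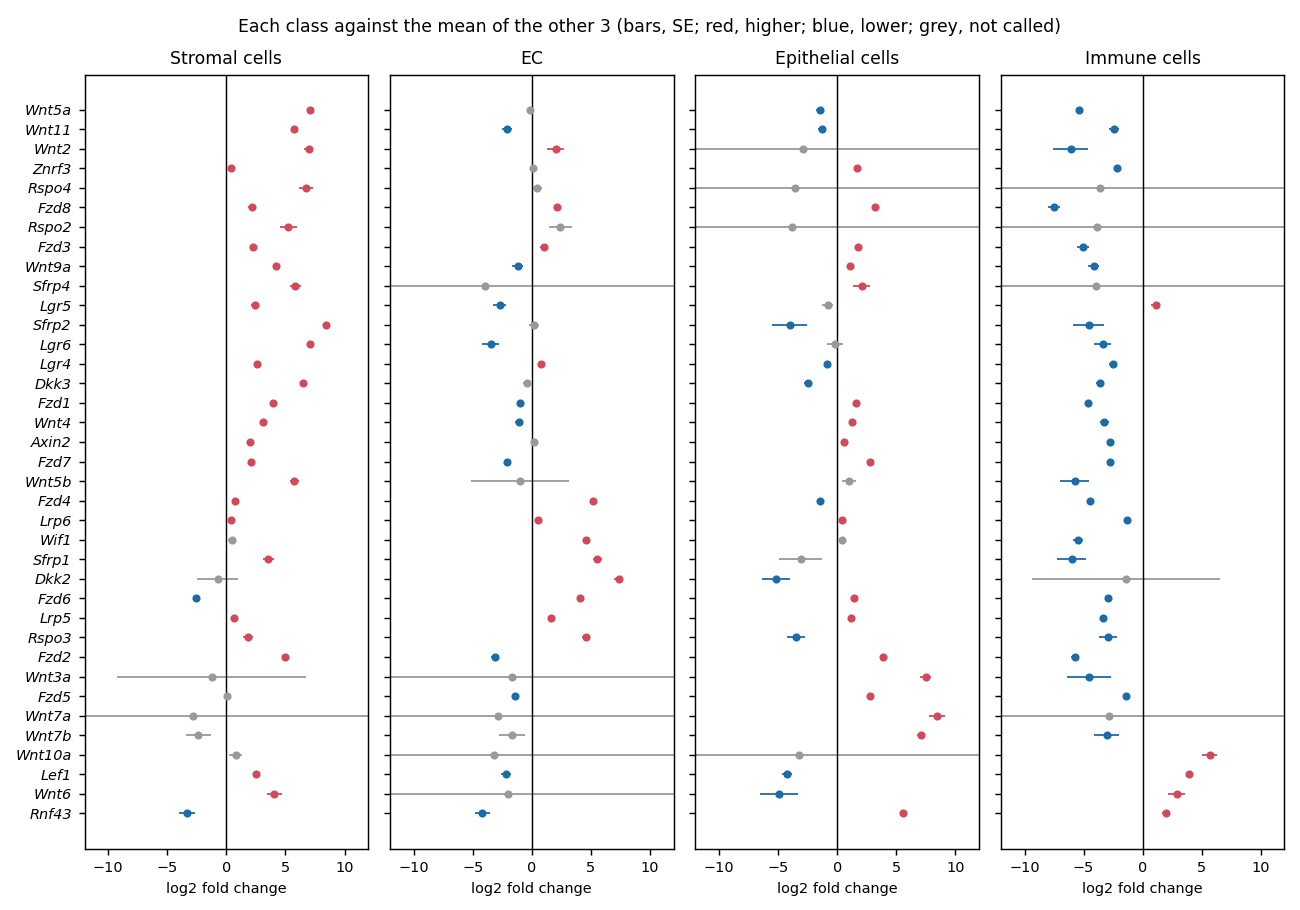
Log2 fold change of each testable gene (rows) in stromal cells, ECs, epithelial cells and immune cells against the mean log level of the other 3 classes. Values are from 3 mice, with bars for the SE and red, blue and grey for higher, lower and not called. In the stromal panel 28 genes are red and 2 blue, and in the immune panel 5 are red and 27 blue. Values of the 16 genes with a class under 3 UMIs depend on the prior count of the fit.

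Among the ligands, *Wnt5a*, which guides cell movement and tissue shape, held 64.8% of the 14278 ligand UMIs. Over all stromal cells it stood at 512, 520 and 623 CPM in mice 2, 3 and 4, against 13.9 ± 0.67 in ECs, 4.99 ± 1.14 in epithelial cells and 0.854 ± 0.472 in immune cells. Every stromal value lay above every value of the other classes (log2 fold change 7.06 ± 0.11 SE, edgeR adjusted p = 2.1e-16). Within the stroma it was 879, 1037 and 981 CPM in myofibroblast-like cells. The other 4 stromal types were between 73.0 and 176, with no overlap in any mouse (3.06 ± 0.11 SE against their mean, edgeR adjusted p = 4.1e-28). All 5 stromal types exceeded the EC, epithelial and immune means.

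*Wnt11*, a relative of *Wnt5a* in its signalling, marked the same type. Myofibroblast-like cells had 265, 239 and 226 CPM. Pericyte-like cells came next at 48.8, 55.4 and 64.7 CPM, and the remaining stromal types averaged at most 13.4. The myofibroblast-like values stood apart from all others in the stroma (4.39 ± 0.18 SE, edgeR adjusted p = 3.3e-25). Pericyte-like cells were also called higher against the mean log level of the other types (1.57 ± 0.39 SE, edgeR adjusted p = 0.0016). *Wnt5b*, the closest paralog of *Wnt5a*, ran the other way. It was 66.0, 36.9 and 38.0 CPM in pericyte-like cells, 36.3, 30.6 and 31.4 in Col13a1-type fibroblast-like cells, and 33.3, 42.1 and 13.9 in Col14a1-type fibroblast-like cells, and these 3 types overlapped. Myofibroblast-like cells had at most 1.06 CPM of *Wnt5b* in any mouse, below every other stromal value (edgeR adjusted p = 3.4e-09).

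The 250 bases upstream of a transcription start were searched for the core of the Tcf/Lef motif, CTTTGA or TCAAAG on the other strand, in RefSeq promoters on GRCm38.p6. The table held 40 promoters for 33 of the genes (none for *Wnt5a* and 17 others). The motif was present in 5 of the 40 (12.5%), against 4519 of 32538 promoters in all (13.9%), a share near that of all promoters. The matches lay at *Dkk1*, *Fzd1*, *Lef1*, *Wnt11* and *Wnt5b*. None lay upstream of the listed starts of *Axin2*, the usual reporter of β-catenin signalling, which says only that these letters are missing from that window. Shown here are the matched windows at *Wnt11* and *Wnt5b*, ligands that are high and low in myofibroblast-like cells. The window at the 4th listed start of *Lef1*, which encodes a protein that binds this motif, is also shown. The other listed starts of these genes had no match, among them the most upstream start of *Wnt5b* (chr6:119544348-119544597). Capitals mark the motif, and 3' UMIs do not tell which start was used.
Wnt11 (chr7:98834862-98835111, plus strand): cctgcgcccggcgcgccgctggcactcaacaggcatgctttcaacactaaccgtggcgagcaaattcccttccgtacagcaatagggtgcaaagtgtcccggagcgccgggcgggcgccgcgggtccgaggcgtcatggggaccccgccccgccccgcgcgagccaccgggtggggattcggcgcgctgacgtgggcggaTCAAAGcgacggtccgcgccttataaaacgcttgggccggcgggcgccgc
Wnt5b (chr6:119449387-119449636, minus strand): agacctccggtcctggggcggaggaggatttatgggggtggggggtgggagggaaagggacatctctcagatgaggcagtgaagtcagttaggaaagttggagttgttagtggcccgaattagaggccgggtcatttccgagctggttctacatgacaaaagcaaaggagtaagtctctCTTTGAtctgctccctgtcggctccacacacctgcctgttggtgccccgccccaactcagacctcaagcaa
Lef1 (chr3:131156044-131156293, plus strand): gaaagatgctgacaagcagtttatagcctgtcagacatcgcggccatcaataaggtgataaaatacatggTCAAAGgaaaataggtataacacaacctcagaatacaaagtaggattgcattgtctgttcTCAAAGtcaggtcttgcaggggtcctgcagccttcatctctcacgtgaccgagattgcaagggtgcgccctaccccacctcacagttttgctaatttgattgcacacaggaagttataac

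*Wnt2*, a ligand of the early lung mesenchyme, was almost limited to 1 stromal type. Of its 404 UMIs, 369 lay in Col13a1-type fibroblast-like cells, at 174, 152 and 157 CPM. The highest value elsewhere in the stroma was 7.02 CPM, and the difference passed the test (edgeR adjusted p = 1e-15). *Wnt2* passed the low-count filter between types only through Col13a1-type fibroblast-like cells, so the filter set that direction. Venous EC-like cells had 9.06, 7.17 and 9.54 CPM, above the other EC types in each mouse (edgeR adjusted p = 0.0023). All ECs together held 19 *Wnt2* UMIs, in 12 cells. With DESeq2 the calls in both types were lost. No *Wnt2* UMI was seen in immune cells, where the upper end of the exact 95% Poisson interval was 0.274 CPM.

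*Wnt4*, which acts in kidney and gonad formation, and *Wnt9a*, known from joints, were spread over several sources. *Wnt4* was 123, 86.1 and 167 CPM in pericyte-like cells, 60, 74.0 and 92.7 in Col13a1-type fibroblast-like cells and 45.6, 75.7 and 50.6 in club-like cells. The pericyte-like and Col13a1-type values overlapped, and both types were called higher within the stroma (edgeR adjusted p = 1.3e-14 and 1.5e-12). *Wnt9a* was 19.0, 44.4 and 41.8 CPM in Col14a1-type fibroblast-like cells and 27.2, 24.1 and 29.3 in myofibroblast-like cells. These overlapped too, and both types were called higher (edgeR adjusted p = 0.00031 and 0.00076). *Wnt9a* lay lowest in pericyte-like cells, at 0 to 3.80 CPM (edgeR adjusted p = 0.00083), and both this call and that in myofibroblast-like cells were lost without mouse 2.

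The epithelium had ligands of its own. Most UMIs of *Wnt3a*, *Wnt7a* and *Wnt10b* came from alveolar type 1 (AT1)-like cells, the flat cells of gas exchange. *Wnt3a*, a strong activator of β-catenin, was 74.1, 56.0 and 86.4 CPM in AT1-like cells and 2.49, 3.05 and 1.87 in AT2-like cells, the surfactant producers. *Wnt7a* was 53.7, 36.0 and 59.1 CPM against 1.71, 0.703 and 1.40. *Wnt10b* was 21.5, 18 and 24.3 CPM against at most 0.311. In each of these 3 ligands the 2 epithelial types were separate in every mouse. Outside the epithelium *Wnt7a* had no UMI in ECs, stromal or immune cells, and *Wnt3a* had 3 UMIs over these 3 classes. Of the 166 AT1-like cells, a cluster of 37 had a median of 35994 UMIs and held 1524871 of the 2749682 AT1-like UMIs. It also held 5 of the 6 AT1-like cells marked as doublets. How far this cluster sets the AT1-like levels here and below was not tested.

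*Wnt7b*, a ligand that acts on lung mesenchyme and vessels in development, was the ligand shared by both alveolar types. It stood at 29.0, 36.0 and 40.9 CPM in AT1-like cells, 16.2, 14.3 and 12.8 in AT2-like cells and 7.72 ± 2.09 in club-like cells. Of its 386 UMIs, 366 lay in epithelial cells, 247 of them in AT2-like cells, and 5 in the other 3 classes. The remaining ligands were sparse. *Wnt6* had 45 UMIs in stromal and 18 in immune cells. Its highest mean among the tested types was 19.7 CPM, in interstitial macrophage-like cells, which were called higher among the immune types. The sums of these cells held only 101442 to 153652 UMIs per mouse, so this *Wnt6* mean rests on at most those 18 UMIs. Col14a1-type fibroblast-like values were 0, 28.1 and 3.49 CPM and differed widely between mice. *Wnt10a*, known from teeth and hair, had 32 of its 37 UMIs in B cell-like cells, at 5.53, 3.72 and 3.69 CPM. The immune class was called higher for *Wnt10a* (edgeR adjusted p = 8e-06), at 3.01, 2.38 and 2.08 CPM. The gene passed the low-count filter only through these immune sums, so the filter set that direction.

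**Figure D2:**
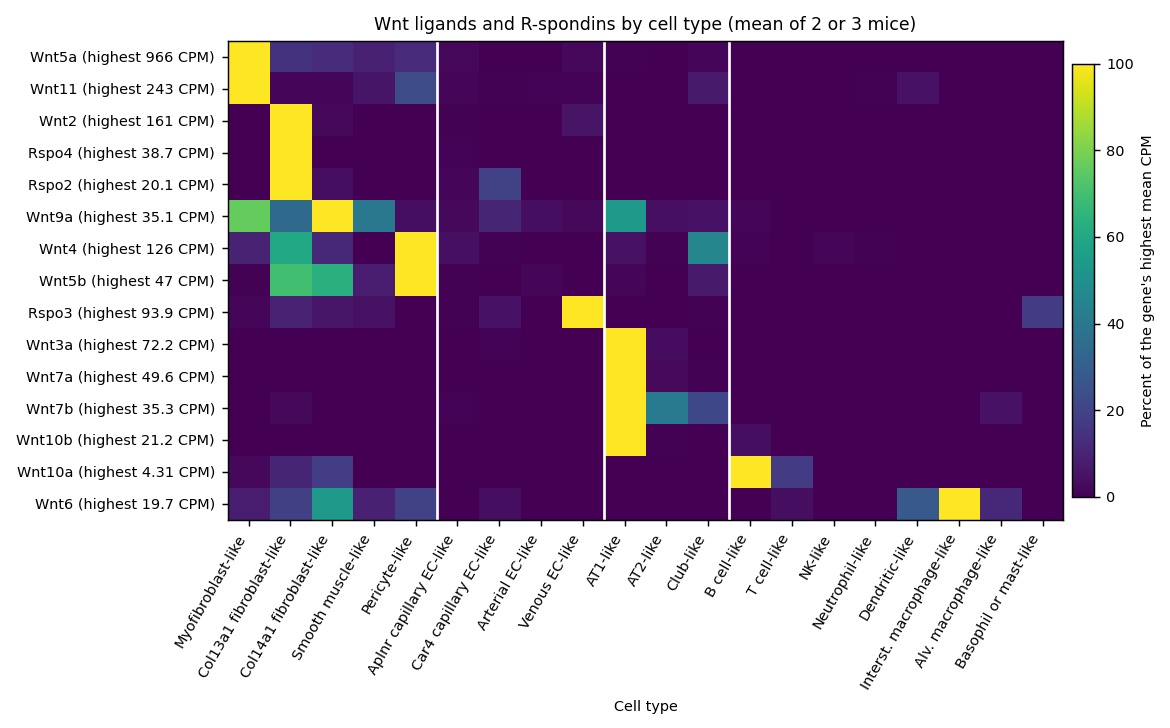
Mean CPM of Wnt ligands and R-spondins (rows) in 20 cell types (columns), each row scaled to its own highest mean, which is printed beside the gene, with white lines between stromal, EC, epithelial and immune types. *Wnt5a* and *Wnt11* peak in myofibroblast-like cells (966 and 243 CPM), *Wnt2* in Col13a1-type fibroblast-like cells (161 CPM), *Rspo3* in venous EC-like cells (93.9 CPM), and *Wnt3a*, *Wnt7a*, *Wnt7b* and *Wnt10b* in AT1-like cells.

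Some ligand genes are neighbours in the genome (GRCm38), and some of these pairs differed in the type that held the most UMIs. *Wnt3a* (chr11:59248033-59290752) and *Wnt9a* (chr11:59306928-59333552) lie 16175 bases apart on opposite strands, with most *Wnt3a* UMIs in AT1-like cells (211 of 260) and most *Wnt9a* UMIs in myofibroblast-like cells (226 of 446). AT1-like cells also had *Wnt9a*, at 16.1, 32.0 and 8.34 CPM. *Wnt6* and *Wnt10a* lie 6193 bases apart on chromosome 1 on the same strand, with 54 of 123 *Wnt6* UMIs in Schwann-like cells and 32 of 37 *Wnt10a* UMIs in B cell-like cells. *Wnt10b* and *Wnt1* are 11706 bases apart on chromosome 15 and had 71 and 2 UMIs, of which AT1-like cells held 61 and 1. *Wnt9b* and *Wnt3*, 24328 bases apart on chromosome 11, had 5 and 3. Both of these last pairs were too sparse to compare.

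R-spondins, which amplify Wnt signals, came from few cells. *Rspo3*, an R-spondin with a known role in vessels, was 134, 64.5 and 83.5 CPM in venous EC-like cells, and 121 of its 242 UMIs lay there. The other EC types had at most 4.88 CPM in any mouse, so the groups were far apart (edgeR adjusted p = 4.1e-14). *Rspo3* passed the low-count filter between types only through venous EC-like cells, so the filter set that direction. Col13a1-type fibroblast-like cells had 9.47, 8.45 and 9.54 CPM, which overlapped the other stromal values (up to 9.36). *Rspo4*, known from nail growth, was 39.5, 41.2 and 35.4 CPM in Col13a1-type fibroblast-like cells and had no UMI in any other stromal type (edgeR adjusted p = 1.6e-09). It passed the low-count filter between types only through this type, so the filter set that direction. *Rspo2*, which acts in limb and lung growth, also peaked there, at 20.5, 18 and 21.8 CPM. It was too sparse for the test between types and was called higher in the stroma as a whole (edgeR adjusted p = 5.7e-05). In the class fit *Rspo2* passed the low-count filter only through its stromal sums, so the filter set that direction. *Rspo1* had 43 UMIs and was not tested.

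The R-spondin receptors had another distribution. *Lgr6* was 269, 254 and 248 CPM in smooth muscle-like cells and 99.3, 90.2 and 71.2 in myofibroblast-like cells. The smooth muscle-like values were the highest of the stroma in every mouse (edgeR adjusted p = 3.3e-21), and these 2 types held 1573 of its 1675 UMIs. *Lgr4*, the widest of the 3, was 19.8, 24.1 and 21.2 CPM in smooth muscle-like cells and 16.6, 23.4 and 13.9 in Col14a1-type fibroblast-like cells, which overlapped. Lgr4 was higher in stromal cells than in the other classes (2.60 ± 0.18 SE, edgeR adjusted p = 3.6e-09) and lower in immune cells (-2.51 ± 0.30 SE, edgeR adjusted p = 1.6e-06). *Lgr5*, a stem cell marker of the gut, had 184 UMIs, with its highest mean in Col14a1-type fibroblast-like cells (14.3, 18.7 and 3.49 CPM, from 15 UMIs) and most UMIs in myofibroblast-like cells (76, at 6.01, 12.5 and 9.76 CPM, which overlapped), besides 34 in B cell-like cells (3.32, 3.72 and 6.46 CPM). Thus *Rspo2* and *Rspo4* were highest in a type in which no Lgr gene had its highest level.

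Among the Frizzled receptors, *Fzd4*, which also binds norrin and serves vessel growth, separated ECs from all other cells. ECs had 336, 368 and 344 CPM against 32.8 ± 3.86 in stromal, 8.25 ± 1.76 in epithelial and 2.00 ± 0.152 in immune cells, without overlap (5.14 ± 0.08 SE, edgeR adjusted p = 6.3e-16). Within ECs, Aplnr-type capillary EC-like cells had 376, 443 and 401 CPM and Car4-type capillary EC-like cells had 213, 234 and 196. The Car4-type values were below every other EC value (-0.75 ± 0.12 SE, edgeR adjusted p = 4.2e-06). The highest *Fzd4* outside ECs was 131 ± 2.20 CPM in Col14a1-type fibroblast-like cells. *Fzd6*, a planar polarity receptor, was likewise highest in ECs, at 131, 127 and 130 CPM against 22.7 ± 1.80 in epithelial cells (4.11 ± 0.08 SE, edgeR adjusted p = 2.8e-15). Venous EC-like cells led with 218, 210 and 193 CPM of *Fzd6*, and the Car4-type again stood lowest at 46.6 to 103.

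*Fzd1* and *Fzd2*, receptors for several Wnt ligands, were shared by the stroma and the AT1-like cells. *Fzd1* was 330, 363 and 312 CPM in pericyte-like cells, above every other stromal value (1.17 ± 0.18 SE, edgeR adjusted p = 5.6e-07), then 233 ± 22.8 in myofibroblast-like cells and 109 ± 19.5 in AT1-like cells. *Fzd2* was 332, 306 and 306 CPM in AT1-like cells and 214, 257 and 241 in Col14a1-type fibroblast-like cells. Pericyte-like cells had little of it, 7.61 to 24.6 CPM, below every other stromal value (-3.84 ± 0.30 SE, edgeR adjusted p = 9.9e-15). Pericyte-like cells thus had the highest *Fzd1* and the lowest *Fzd2* of the stromal types. ECs had 2.49 ± 0.931 CPM of *Fzd2*.

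*Fzd5*, needed for vessel growth in the yolk sac, was an epithelial receptor here, at 67.7, 70.0 and 69.0 CPM in AT1-like and 36.9, 32.4 and 38.8 in AT2-like cells, and no other type averaged above 20.8. *Fzd7* was 97.6, 111 and 72.3 CPM in pericyte-like cells and 71.0, 75 and 91.3 in Col13a1-type fibroblast-like cells, which overlapped, and 44.9 ± 4.34 and 44.2 ± 7.19 in AT1-like and AT2-like cells, which did not separate. *Fzd8* was 28.4, 46.5 and 32.7 CPM in Col13a1-type fibroblast-like cells, above the other stromal types (1.49 ± 0.24 SE, edgeR adjusted p = 2.3e-06), and a single UMI was found over all immune cells. *Fzd3*, a receptor of axon guidance, also had its highest stromal level in Col13a1-type fibroblast-like cells, at 18.9, 14.8 and 24.5 CPM (1.63 ± 0.39 SE, edgeR adjusted p = 0.0011), a call that was lost without mouse 4. *Fzd9* and *Fzd10* had 57 and 29 UMIs and were not tested.

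Both co-receptors were found in all 4 classes. *Lrp6* was 149, 162 and 180 CPM in ECs, 142 ± 9.74 in stromal, 112 ± 8.22 in epithelial and 52.2 ± 2.69 in immune cells, so the EC and stromal values overlapped and every immune value was lowest (-1.34 ± 0.07 SE, edgeR adjusted p = 1.2e-10). *Lrp5* was 80.9, 91.7 and 83.7 CPM in ECs, above every value of the other classes (1.62 ± 0.11 SE, edgeR adjusted p = 3.9e-09). Immune cells had 5.66 ± 1.79 CPM of *Lrp5*. In Car4-type capillary EC-like cells both co-receptors were lower than in every other EC type (-0.80 ± 0.15 SE for *Lrp6* and -0.77 ± 0.21 SE for *Lrp5*, edgeR adjusted p = 2.1e-05 and 0.0055), as were *Fzd4* and *Fzd6*. These 4 were the only calls in this type, all lower, where 16.7% of all genes were called and 8.42% were lower. The call on *Lrp5* was lost without mouse 4.

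**Figure D3:**
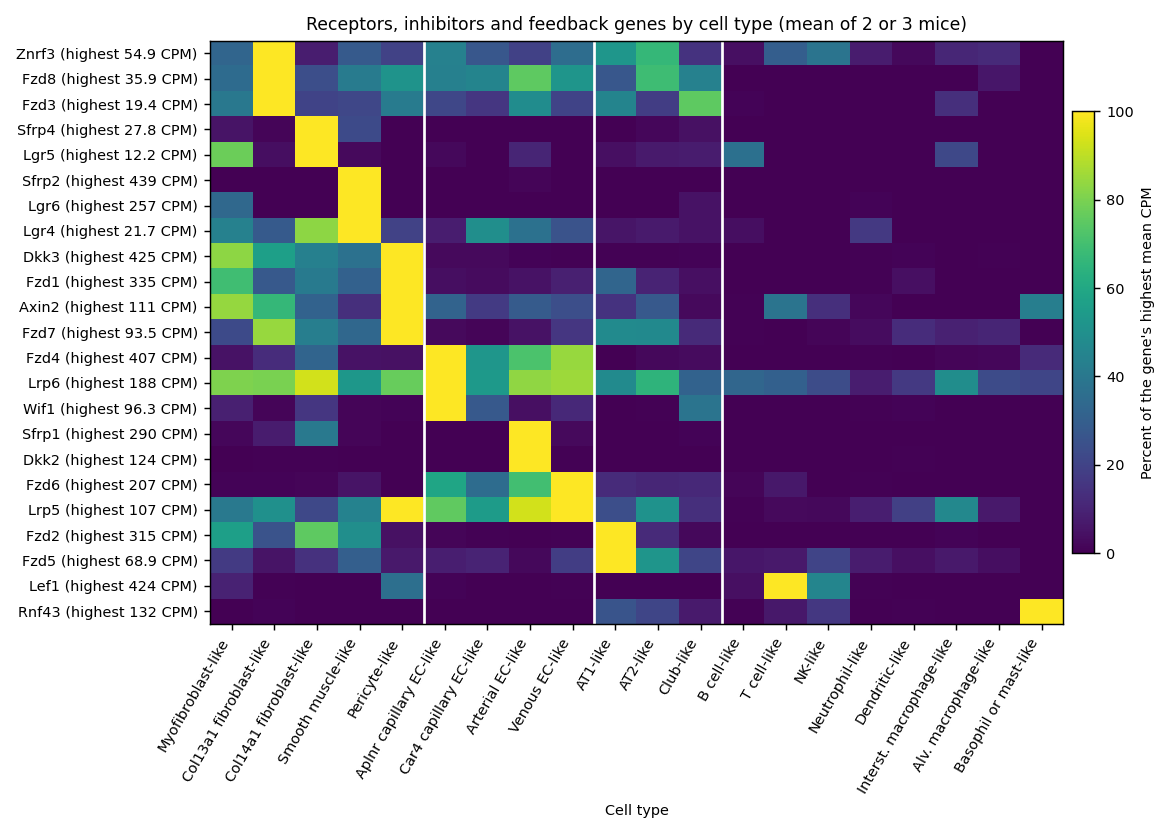
Mean CPM of receptors, co-receptors, inhibitors, ligases, *Axin2* and *Lef1* (rows) in 20 cell types (columns), each row scaled to its own highest mean, which is printed beside the gene, with white lines between stromal, EC, epithelial and immune types. *Fzd4* and *Fzd6* peak in ECs (407 and 207 CPM), *Fzd2* in AT1-like cells (315 CPM), *Lgr6* and *Sfrp2* in smooth muscle-like cells (257 and 439 CPM), and *Lrp6* is spread over many types.

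The secreted inhibitors differed in their main source. *Dkk3*, a Dkk relative that does not bind the Lrp co-receptors, was the stromal one, at 276, 274 and 308 CPM against 8.42 ± 2.73 in ECs (6.51 ± 0.14 SE against the other classes, edgeR adjusted p = 3.6e-15). Pericyte-like cells led with 454, 412 and 411 CPM, and all 5 stromal types averaged at least 158. *Sfrp2* was 434, 386 and 497 CPM in smooth muscle-like cells, which held 1476 of its 1593 UMIs, and no other stromal value exceeded 4.75 CPM (edgeR adjusted p = 3.9e-25). *Sfrp4* was 33.3, 32.8 and 17.4 CPM in Col14a1-type fibroblast-like cells, above the other stromal values, which reached 7.13 (edgeR adjusted p = 4.5e-07). *Sfrp2* and *Sfrp4* each passed the low-count filter between types only through the type named here, so the filter set both directions. With DESeq2 in place of edgeR the calls on *Sfrp2* in smooth muscle-like and *Sfrp4* in Col14a1-type fibroblast-like cells were lost, as were those on *Wnt2* in Col13a1-type fibroblast-like and venous EC-like cells.

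The vascular inhibitors differed between the EC types. *Dkk2*, which blocks the Lrp co-receptors in most settings, was 95.9, 135 and 142 CPM in arterial EC-like cells, which held 187 of its 202 UMIs, and at most 2.39 in any other EC sum (edgeR adjusted p = 5.9e-15). The call was lost with DESeq2. *Dkk2* passed the low-count filter between types only through arterial EC-like cells, so the filter set that direction. *Sfrp1* was 148, 288 and 435 CPM in arterial EC-like cells, with a wide spread between mice (290 ± 144), and at most 12 CPM in the other EC types (edgeR adjusted p = 2.5e-16). Col14a1-type fibroblast-like cells were its stromal source, at 181, 110 and 62.7 CPM. Within arterial EC-like cells, *Dkk2* and *Sfrp1* lay mostly in a cluster of 59 cells. Its leading genes included *Cytl1*, *Vwf* and *Lyve1*, with 1 arterial marker, *Gja5*. The cluster of 97 cells led by the arterial markers *Gja5*, *Gja4*, *Hey1* and *Efnb2* had little of either. *Wif1* was 105, 96.6 and 87.3 CPM in Aplnr-type capillary EC-like cells, above the next EC value of 35.9 (3.15 ± 0.27 SE, edgeR adjusted p = 4.4e-12). Club-like cells also had *Wif1*, at 22.3, 33.8 and 54.9 CPM. *Sfrp5* had 45 UMIs in 2 Col13a1-type fibroblast-like cells of mouse 4 and none in that type in the other two mice.

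**Figure D4:**
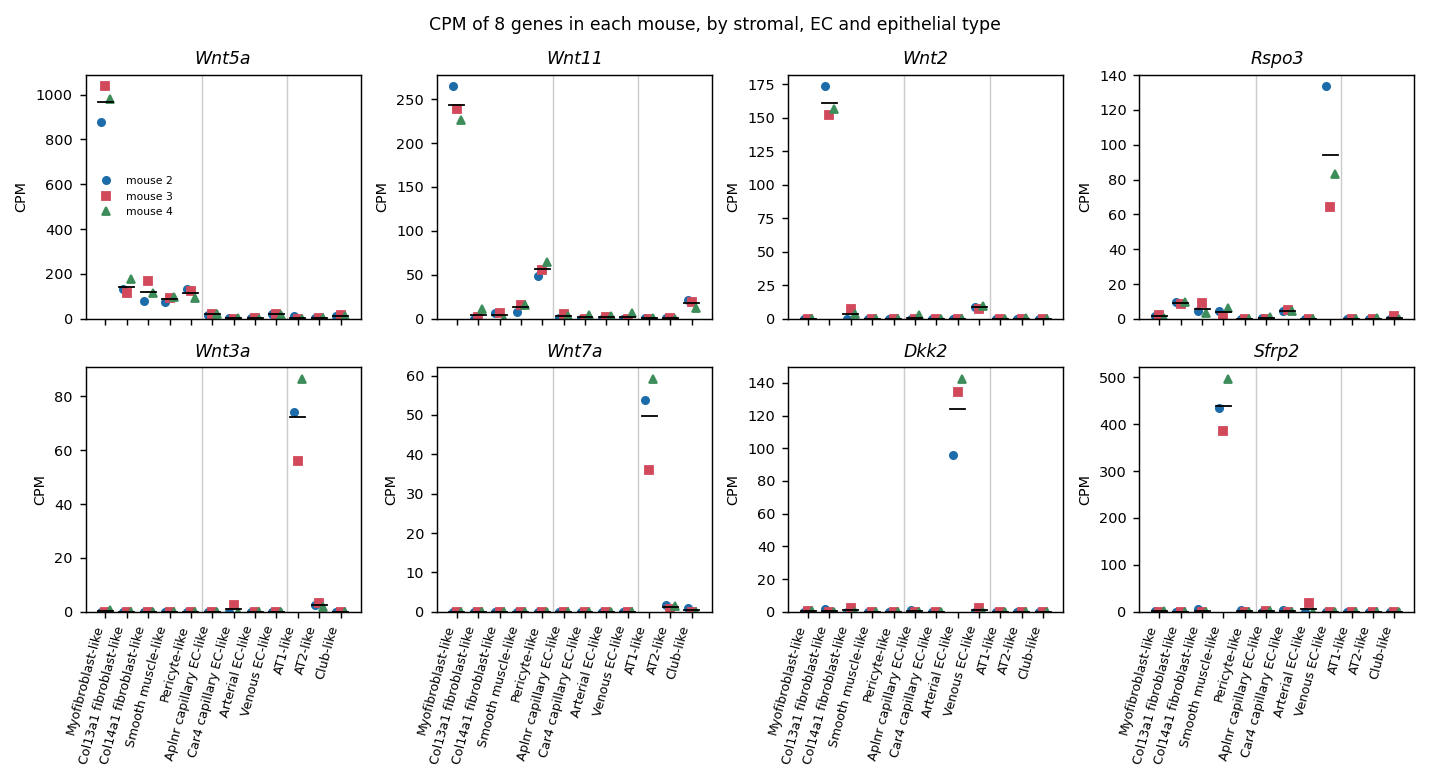
CPM of *Wnt5a*, *Wnt11*, *Wnt2*, *Rspo3*, *Wnt3a*, *Wnt7a*, *Dkk2* and *Sfrp2* in 12 stromal, EC and epithelial types, with 1 point per mouse (circle, square and triangle for mice 2, 3 and 4) and a line at the mean. In each panel the 3 points of 1 type lie above the points of all other types, for example 879 to 1037 CPM of *Wnt5a* in myofibroblast-like cells. The genes were picked for this figure. *Wnt2*, *Rspo3*, *Wnt3a*, *Wnt7a*, *Dkk2* and *Sfrp2* passed the low-count filter between types only through their highest type, so this separation is no test.

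The 2 ligases that clear Frizzleds from the surface, themselves Wnt targets in many tissues, were called higher in epithelial cells. *Rnf43* was 26.0, 27.3 and 26.2 CPM in epithelial cells, above all values of the other classes, with 34.0 ± 3.35 in AT1-like and 27.7 ± 1.57 in AT2-like cells. It had 2 UMIs in ECs and 5 in stromal cells (edgeR adjusted p = 1.5e-12 for the epithelial class). In basophil or mast-like cells *Rnf43* was 164 and 99.2 CPM in mice 3 and 4, with 26 UMIs over all 3 mice, the highest immune level (edgeR adjusted p = 1.8e-11). Mouse 2 had under 10 such cells and was not in that test. *Znrf3* was 30.0, 35.5 and 32.3 CPM in epithelial cells (1.68 ± 0.09 SE, edgeR adjusted p = 1.6e-10) and 64.7, 59.2 and 40.9 in Col13a1-type fibroblast-like cells, above every other stromal value (2.26 ± 0.27 SE, edgeR adjusted p = 1.1e-09).

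*Axin2*, the common readout of β-catenin signalling, was highest in stromal cells, at 70.9, 67.0 and 70.7 CPM against 30.6 ± 4.44 in ECs, 26.3 ± 3.48 in epithelial and 5.05 ± 2.03 in immune cells (1.97 ± 0.10 SE, edgeR adjusted p = 1.1e-10). Pericyte-like cells had 106, 129 and 98.9 CPM and myofibroblast-like cells 92.6, 102 and 86.9, and these overlapped. Smooth muscle-like cells had 14.3 to 15.3 CPM, below every other stromal value (-2.18 ± 0.24 SE, edgeR adjusted p = 8.3e-11). *Lef1*, the β-catenin partner with a role of its own in T cells, was 353, 434 and 484 CPM in T cell-like cells and 196, 189 and 192 in NK-like cells. Pericyte-like cells had 144, 178 and 145 CPM of *Lef1*, above every other stromal value, which reached 43.9 (edgeR adjusted p = 4.4e-15). Both genes thus had their highest stromal mean in pericyte-like cells.

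Between AT1-like and AT2-like cells, 9 of 35 testable genes were higher and 6 lower in AT1-like cells (35.8% of 12265 genes called, 13.3% higher and 22.5% lower). Medians were -0.20 over the set and -0.23 over all genes. Higher ligands were *Wnt10b* (61 UMIs in AT1-like against 3 in AT2-like cells), *Wnt7a* (log2 fold change 4.75 ± 0.43 SE) and *Wnt3a* (4.46 ± 0.38). *Wnt9a*, *Wnt4* and *Wnt7b* were higher by 3.04, 2.01 and 0.89 on the log2 scale. Of these 6 called ligands, *Wnt3a*, *Wnt7a*, *Wnt7b* and *Wnt10b* passed the low-count filter only through AT1-like sums, so the filter set their direction. The receptors *Fzd2* (2.65 ± 0.13), *Fzd1* (1.36 ± 0.20) and *Fzd5* (0.52 ± 0.19) were also higher. Those lower were *Fzd4* (3 UMIs in AT1-like against 150 in AT2-like cells), *Fzd8* (-1.72 ± 0.27), *Lrp5* (-1.45 ± 0.22), *Axin2* (-1.21 ± 0.26), *Lrp6* (-0.81 ± 0.13) and *Znrf3* (-0.72 ± 0.24). *Axin2* was 25.8, 8 and 15.2 CPM in AT1-like and 27.5, 37.3 and 28.5 in AT2-like cells, without overlap.

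The weaker of these calls depended on single mice or on scaling. *Wnt4* lost its call without mouse 3, *Fzd5* and *Wnt7b* without mouse 4, and *Znrf3* without mouse 2, without mouse 3 and without TMM scaling. Without that scaling the median of all genes moved from -0.23 to 0.12, the share of called genes that were higher went from 37.2% to 71.9%, and the set had 9 higher and 5 lower. The call on *Wnt3a* was lost with DESeq2.

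**Figure D5:**
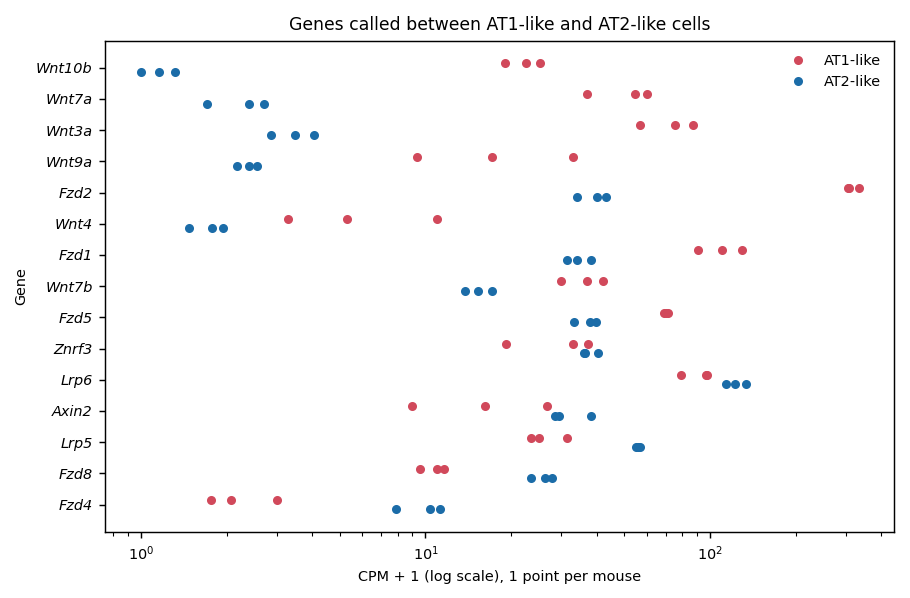
CPM + 1 on a log scale of the 15 genes called between AT1-like (red) and AT2-like (blue) cells, with 1 point per mouse and genes ordered by log2 fold change. The 2 types are apart in every gene but *Znrf3*, where 1 AT1-like point falls among the AT2-like ones.

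Among the stromal types, 28 of 35 genes differed (80% against 55.3% of all genes), among the EC types 14 (40% against 27.6%) and among the immune types 14 (40% against 71.3%). Some of the 35 passed the low-count filter only through other classes. *Rspo4*, *Sfrp4*, *Wnt2*, *Wnt3a*, *Wnt5b* and *Wnt7a* had 0 UMIs in immune cells and could not be called there. The same held for *Sfrp4*, *Wnt7a* and *Wnt10b* in ECs. The immune share thus does not tell how alike the immune types are. In the stroma each type had genes of which it held the highest mean and that were called higher. These were 8 genes in pericyte-like cells (9 higher of 35, with 12% of all genes higher), 7 in Col14a1-type fibroblast-like cells (9 higher, 12.7%), 6 in Col13a1-type fibroblast-like cells (11 higher, 13.9%), 5 in smooth muscle-like cells (7 higher, 18.3%) and 2 in myofibroblast-like cells (10 higher, 18.7%). The 2 of the myofibroblast-like cells were *Wnt5a* and *Wnt11*. In ECs, venous EC-like cells had 7 genes higher (7.88% of all genes) and none lower (665 of all 12265 genes were lower). Aplnr-type capillary EC-like cells had 6 higher (7.72%) and 1 lower (432 of all genes). Arterial EC-like cells had 3 higher (8.45%) and 3 lower (818 of all genes).

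Some EC calls rested on few UMIs or on 1 cluster. Venous EC-like cells had the highest mean of *Wnt5a* among the EC types and were called higher. *Wnt5a* was also called higher in Aplnr-type capillary EC-like cells (edgeR adjusted p = 0.00068) at 16.9 to 21.8 CPM. A cluster of 67 cells within this type had a median of 1972 UMIs per cell, 13 cells marked as doublets and 149.5 CPM of *Wnt5a*. Without clusters of low UMIs, an alternative chosen after the data were seen, the fitted log2 value for *Wnt5a* in that type was -1.27. This value rests on 3 UMIs or fewer in a compared type. *Sfrp2* was called higher in arterial EC-like cells from 9 UMIs, all in mouse 3, and without mouse 3 the fitted value, which likewise depends on the prior count, was -1.81. *Fzd1* in venous EC-like cells (21.5 to 38.2 CPM) lost its call without any 1 of the mice. How far doublets or shallow cells take part in these values was not tested.

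Besides *Lef1*, few genes stood out among the immune types. *Axin2* was called higher in T cell-like cells against the mean of the other immune types, at 37.1, 52.3 and 39.5 CPM (edgeR adjusted p = 2.3e-09), and basophil or mast-like cells, at 28.9 and 66.1 CPM in mice 3 and 4, overlapped them. *Wnt11* was 20.2, 11.2 and 4.79 CPM in dendritic-like cells (edgeR adjusted p = 3.1e-05), from 19 UMIs, next to 226 to 265 CPM in myofibroblast-like cells of the same libraries. *Lrp5* was called higher in interstitial macrophage-like cells from 19 UMIs (edgeR adjusted p = 5.7e-06). Another 2 calls changed direction in other settings and are given as values only: *Lgr6* in neutrophil-like cells came from 3 UMIs of mouse 4, and *Rspo3* in basophil or mast-like cells from 2 UMIs of mouse 4.

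Genes under 100 UMIs that have not been described were *Wnt16* (13 UMIs), *Dkk1* (9), *Wnt2b* (7), *Wnt9b* (5), *Wnt3* (3), *Wnt1* (2), and *Wnt8b* and *Dkk4* (1 each). All 5 UMIs of *Wnt9b* lay in venous EC-like cells. At this depth their absence from other types could not be told from levels under the limit that a count of 0 allows. *Wnt2b*, the partner of *Wnt2* in early lung specification, was thus close to undetected at P14.

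The wider pathway was read from 71 further genes, of which 62 were testable in the class fit. In stromal cells 44 were higher and 6 lower (median log2 fold change 1.04), where 35.8% and 30.9% of all genes were. In immune cells these were 5 and 47 (median -2.73, with 37.9% and 38.7% of all genes), in ECs 29 and 12 (0.30, with 30% and 29.8%) and in epithelial cells 30 and 19 (0.19, with 34.8% and 36.5%). The 5 genes that act in secretion and surface handling of the ligands (*Porcn*, *Wls*, *Gpc3*, *Gpc4* and *Gpc6*) were all higher in stromal and all lower in immune cells. Of the 8 alternative receptors and co-receptors tested, 7 were higher in stromal cells, among them the Wnt5a receptor *Ror2* at 31.1, 35.3 and 33.8 CPM, with no UMI in immune cells. *Gpc6*, a glypican, was 227, 247 and 202 CPM in stromal cells (6.86 ± 0.18 SE, edgeR adjusted p = 3.7e-14), and *Sost*, which encodes an Lrp inhibitor known from bone, was 39.3, 35.7 and 53.0.

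ECs had the highest levels of the planar polarity genes *Prickle1*, at 200, 202 and 186 CPM (4.61 ± 0.11 SE, edgeR adjusted p = 2.3e-14), and *Prickle2*, at 100, 109 and 101 (4.18 ± 0.11 SE, edgeR adjusted p = 5.8e-14). Of 10 polarity genes tested, 6 were called higher and 1 lower in ECs, 6 and 3 in stromal cells, and 5 and 4 in epithelial cells. Over all genes these shares were 30% and 29.8%, 35.8% and 30.9%, and 34.8% and 36.5%. Epithelial cells led in another polarity gene, *Celsr1*, at 39.0, 45.3 and 39.0 CPM (4.73 ± 0.15 SE, edgeR adjusted p = 2.3e-13), and in the β-catenin target *Sp5*, at 19.7, 16.7 and 20.7 CPM against 0.455 in the other classes (edgeR adjusted p = 3.7e-10). *Nkd1*, a feedback inhibitor, was 1.57 ± 0.731 CPM in immune cells and between 85.0 and 151 in the means of the other 3 classes (-6.13 ± 0.14 SE, edgeR adjusted p = 5e-15). Immune cells were higher in *Tcf7*, the T cell relative of *Lef1*, at 61.7, 67.2 and 56.5 CPM (2.08 ± 0.12 SE, edgeR adjusted p = 4.2e-10).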

How the data were processed

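Whole lungs of 3 P14 mice were profiled with droplet scRNA-Seq, and 1 group was formed from the labels. The deposited matrices hold UMI counts, which the authors made with Cell Ranger 3.0.2 on mm10 per the submitters' processing notes. Barcodes had at least 500 UMIs. The series text gives 5677 cells, and the files hold 9644 barcodes. The study's own clusters and names were not used here, so counts of cells cannot be matched between them.

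Cells were kept from 200 genes upwards where mitochondrial genes took no more than 20% of UMIs (7642). Seurat 5.3.0 with sctransform 0.4.2 clustered them, the Wnt and pathway genes being left out of the variable genes, and clusters were named from fixed marker lists. The naming rule went through 3 versions after clusters were seen, and some leading genes seen then belonged to the set. The doublet caller of scanpy 1.11.5 marked at most 0.432% of a library at its own threshold and had not worked, so the highest scores were marked instead (201 kept cells, retained in the main fit). UMIs were summed per mouse and class (14095 genes tested) and per mouse and type with at least 10 cells in at least 2 mice (12265 genes, 21 types), and tested with edgeR 4.0.16 (TMM, filterByExpr, quasi-likelihood, Benjamini-Hochberg over all genes, threshold 0.05). The script was tested on simulated data. Genes could pass filterByExpr through the sums of 1 class or type alone, and the filter then set the direction of their calls. In the type fit these included *Wnt2*, *Rspo3*, *Dkk2*, *Sfrp2* and *Sfrp4*. *Rspo3*, *Fzd3*, *Rnf43* and *Lef1* overlap another listed gene on the same strand, so UMIs could be split between them. Intervals and limits of a count of 0 cover counting error only.

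The gene set, marker lists and pathway list were chosen with earlier results of these data known. Genes with at least 100 UMIs were described by mouse, the rest by count. Of the pathway list up to 3 called genes per direction and class could be named. The classes of 1 mouse share a library, and same-mouse deviations correlated with r = 0.0467 to 0.183 over 18 pairs of classes, so mice pair the sums by source. Replicates are mice per the labels, and no library was a copy of another. Alternatives were DESeq2 1.42.0, no TMM, no low-count filter, a mouse term, a stricter cell filter, doublets removed, other clusterings, each mouse left out, and, added after the clusters were seen, leaving out clusters of low UMIs.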

Additional observations from a re-analysis of the deposited data

Results flagged for a closer look

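Types with too few cells for the tests held a large share of some genes, above their level in any tested type. In 19 chondrocyte-like cells *Wif1* had 577 of its 1385 UMIs (115, 370 and 92 in mice 2, 3 and 4), or 1979 CPM with an exact Poisson interval of 1821 to 2147, against 96.3 CPM in the highest tested type. *Fzd9* had 49 of its 57 UMIs in the same cells (17, 15 and 17). Also there, *Dkk3* had 171 UMIs (587 CPM), *Lgr4* had 30 (103 CPM) and *Fzd8* had 22 (75.5 CPM), each above the highest tested type (425, 21.7 and 35.9 CPM).

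In 27 Schwann-like cells *Sfrp5* had 109 of its 165 UMIs (27, 59 and 23 in mice 2, 3 and 4). *Wnt6* had 54 of its 123 UMIs there (19, 16 and 19), *Sfrp1* had 116 (11, 70 and 35), and *Lgr5* had 20 (11, 0 and 9). No test was made of these values, whose intervals cover counting error only.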

How the results depend on the processing

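Over 250 called values of single genes and 13 alternatives, 2974 kept direction and call, 217 kept direction only, 9 changed direction, and 50 had no value because the gene or type was not tested in that setting or DESeq2 gave no adjusted p (3). The number of genes called ranged, with 1 mouse left out, from 18 to 21 in ECs (23 with all mice), 25 to 28 in epithelial cells (28), 29 to 30 in stromal cells (30), 28 to 29 in immune cells (32), 13 to 14 between AT1-like and AT2-like cells (15), 27 to 30 among stromal types (28), 10 to 11 among EC types (14) and 10 to 12 among immune types (14). Among immune types DESeq2 called 8 in place of 14, and the cause was not tested. With mouse as a replicate block no count moved by over 1.5 times, and the calls lost were *Fzd2* in Aplnr-type capillary EC-like cells (2.15), *Fzd4* in alveolar macrophage-like cells (2.53) and *Wnt9a* in ECs (-1.18). The log2 values of single genes in this paragraph are fitted values. Where a compared class or type held 3 UMIs or fewer, they depend on the prior count. Direction changed for *Lgr6* in neutrophil-like cells without mouse 4 (-0.18, up to 5.59 without another mouse), with doublets removed (-0.23) and at clustering resolution 1.2 (-0.29), for *Rspo3* in basophil or mast-like cells without mouse 4 (-0.187, up to 7.45), and for *Sfrp2* in arterial EC-like cells without mouse 3 (-1.81, up to 5.17). It also changed for *Wnt4* in Aplnr-type capillary EC-like cells at resolution 0.4 (-0.10) and in epithelial cells under the stricter cell filter (-0.23), and for *Wnt5a* in Aplnr-type capillary EC-like cells without clusters of low UMIs (-1.27) and at resolution 0.4 (-3.205). With 3 mice, P values rest on the spread between these animals, and genes under 100 UMIs were limited by depth.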

Other observations

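Some genes differed within a named type, given as pooled CPM of clusters with no test. The 3 clusters of myofibroblast-like cells had 1098, 569 and 1318 CPM of *Wnt5a*, 64.2, 21.7 and 223 CPM of *Lgr6*, and 20.3, 88.2 and 3.16 CPM of *Lef1*, so that the cluster highest in *Lef1* was lowest in both others. Of the 2 clusters of arterial EC-like cells, that with 59 cells had 249.7 CPM of *Dkk2* and 607 CPM of *Sfrp1*, and the other had 7.72 and 1.29 CPM.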
